A study of Mus musculus with 23 samples.

Results

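Atf4 and 6 genes of amino acid supply that the ATF4 protein is known to switch on were examined in the hippocampus of 23 mice. The 7 genes are Atf4, Asns, Pycr1, Pck2, Slc3a2, Slc7a5 and Slc1a5, chosen by name out of 748 genes with values on an nCounter panel of metabolic genes, an assay that counts barcoded probes on RNA molecules without amplification. Atf4 and Asns were chosen with their lower levels in transgenic mice already known from these data, so their differences from wild type are given as description, with no test. A gene was tested if its normalized count was 20 or more in at least 4 mice, which held for 619 genes, all 7 members among them.

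The mice were 18 months old and labelled C57BL6/J. Wild-type mice (n = 4) carried no transgene and received vehicle. The AD mice are 3xTgAD animals with the transgenes Tg(APPSwe,tauP301L)1Lfa, and they received vehicle (n = 5) or urolithin A (n = 5). The ADP mice carried the same alleles and in addition 1 copy of Polbtm1Rsky, which lowers DNA polymerase beta, and they too received vehicle (n = 4) or urolithin A (n = 5). Urolithin A, a product that gut bacteria make from dietary ellagitannins, reached the treated mice through gavage for 5 months, at 200 mg per kg of body weight each day. None of the mice analysed was a wild type on urolithin A, so its effect could be compared only in mice with the AD alleles. Females were 2 of the wild-type, 3 of the AD vehicle and 1 of the ADP vehicle mice. With urolithin A they were 2 of the AD and 3 of the ADP mice. The APP and tau transgenes are driven by a Thy1 cassette, which is active mainly in neurons, whereas the Polb allele lies at its own gene. The panel held values for 0 of 6 markers of hippocampal pyramidal neurons and for 3 of 10 neuronal markers (Gad1, Nat8l and Mapt). Their summed level (log2) lay between 12.27 and 12.49 in wild type and between 12.42 and 13.09 in mice with the AD alleles.

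ATF4 is a transcription factor of the integrated stress response. When amino acids run short or unfolded proteins accumulate, kinases phosphorylate the initiation factor eIF2, most translation slows, and the Atf4 mRNA is translated more; ATF4 protein then raises transcription of genes that make or import amino acids. The mRNA level measured here is therefore only 1 layer of the control of ATF4, and neither ATF4 protein nor eIF2 phosphorylation was measured. In the brain, asparagine synthetase and the large neutral amino acid transporter are known to be needed for normal development in mice and people.

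ATF4, paired with a C/EBP protein, is known to bind a composite element with the letters TGATGNAA, and the promoters were searched for it. RefSeq promoters of 300 bases (GRCm38.p6, 250 before a start site to 50 after it) were at hand for 5 of the 7 genes. They were those of Atf4, Asns, Pycr1, Pck2 and Slc3a2. The element, searched on both strands and with no other motif, was in 3 of these 5, Asns, Pycr1 and Pck2. It was in 3.97% of all 32851 RefSeq promoters and in 17 of the 496 tested panel genes with a promoter. The windows of 68 bases around it are written 5′ to 3′ on the strand of the gene, and the capitals mark the element.
Asns, chr6:7693195-7693262, minus strand: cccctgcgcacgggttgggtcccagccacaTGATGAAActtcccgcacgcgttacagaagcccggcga
Pycr1, chr11:120643814-120643881, minus strand: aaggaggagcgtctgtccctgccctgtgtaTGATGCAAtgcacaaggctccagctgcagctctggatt
Pck2, chr14:55540133-55540200, plus strand: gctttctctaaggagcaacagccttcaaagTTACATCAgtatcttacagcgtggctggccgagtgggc
In Asns it lies 23 bases before the start, and in Pycr1 and Pck2 103 bases before it. The Pck2 copy is read on the opposite strand, which is why it appears as TTACATCA. These letters were not in the Atf4 and Slc3a2 windows. The Slc3a2 window (chr19:8713848-8714147, minus strand) lies inside the gene, which spans 8706882 to 8723369. The bases before the 5′ end of that span were not searched. A match is a description of the sequence and not evidence of binding.

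Totals per mouse were inferred from the spacing of low values. They were 186275 and 245943 counts in replicates 5 and 3 of the ADP urolithin A group, both females, and 426748 to 693069 in the other 21 mice. Atf4, Asns, Pck2, Slc3a2 and Slc7a5 rested on at least 88 inferred counts in every mouse. Pycr1 (17 to 38 counts) and Slc1a5 (10 to 60 counts) were low, and counting error alone gives an SD of 0.30 and 0.31 log2 at their median counts. AD vehicle replicate 5, a male, also stood apart. It had the lowest Asns and Pck2 and the highest Slc1a5 of the 23 mice, and also the highest levels of Aspa (10.62), an oligodendrocyte gene, of Flt1 (7.85), an endothelial gene, and of the microglial genes Cd68 (9.49), Itgam (8.80) and Ptprc (7.27). The summed level of 3 choroid plexus markers, led by Ttr, lay between 5.79 and 13.66 over the mice, and the r of the Ttr level with the members was between -0.273 (Asns) and 0.239 (Pycr1). Where leaving out these mice turned a difference or moved it most, the value without them is given beside it. In bulk tissue, fewer cells of a type and less RNA per cell cannot be told apart.

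Atf4 mRNA was lower in both vehicle-treated transgenic groups than in wild type. Its level (log2 of the normalized count) was 10.17, 10.25, 10.37 and 10.22 in the 4 wild-type mice. In AD vehicle mice it was 9.85, 9.88, 10.09, 10.06 and 9.84, and in ADP vehicle mice 9.69, 9.89, 9.98 and 10.02. All 9 vehicle mice with the AD alleles lay below the lowest wild-type mouse. With urolithin A the level was 10.00, 9.94, 10.00, 10.25 and 10.16 in AD mice and 10.39, 9.99, 9.82, 10.06 and 9.93 in ADP mice. Of these 10 treated mice 8 lay below every wild-type mouse, and AD replicate 4 and ADP replicate 1 lay within or above the wild-type range.

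The group means of Atf4 ran from 10.25 ± 0.08 in wild type (SD, n = 4) through 10.07 ± 0.13 in AD and 10.04 ± 0.22 in ADP mice on urolithin A (n = 5 each) to 9.94 ± 0.12 in AD vehicle (n = 5) and 9.89 ± 0.15 in ADP vehicle mice (n = 4). Each neighbouring pair in this order overlapped. The log2 difference from wild type was -0.31 (SE 0.0983) in AD vehicle and -0.36 (SE 0.104) in ADP vehicle mice, ratios of 0.807 and 0.781. It was -0.18 and -0.21 in AD and ADP mice on urolithin A, and -0.11 in the latter without both mice of low totals. Every AD vehicle mouse lay below every wild-type mouse in 1.78% of the tested genes, and every ADP vehicle mouse in 2.58%; these shares stand beside Atf4 and Asns as background only, since both were chosen from these contrasts.

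Asns encodes asparagine synthetase, which makes asparagine from aspartate and glutamine. Its level was 9.72, 9.73, 9.56 and 9.82 in wild-type mice, 9.39, 9.21, 9.50, 9.35 and 8.90 in AD vehicle mice and 9.42, 9.45, 9.12 and 9.31 in ADP vehicle mice. With urolithin A it was 9.25, 9.40, 9.24, 9.41 and 9.38 in AD mice and 9.48, 9.42, 9.14, 9.50 and 9.09 in ADP mice. All 19 mice with the AD alleles, between 8.90 and 9.50, lay below the lowest wild-type mouse at 9.56, and all 10 treated mice were among them. Such a separation of all 19 held for 2 of the 619 tested genes (0.323%), Asns and Pdk1, a kinase that inhibits pyruvate dehydrogenase. For the treated groups alone it held in 0.323% of genes for AD and in 0.969% for ADP mice.

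Asns averaged 9.71 ± 0.11 in wild type (SD, n = 4) and between 9.27 ± 0.23 and 9.34 ± 0.08 (n = 5 each) in the other groups, with AD vehicle the lowest and AD urolithin A the highest. The 4 transgenic groups overlapped one another. The difference from wild type was -0.44 (SE 0.110) in AD vehicle, -0.38 (SE 0.115) in ADP vehicle, -0.37 in AD urolithin A and -0.38 in ADP urolithin A mice, ratios between 0.738 and 0.773. Without AD vehicle replicate 5 the first was -0.345, and without both ADP mice of low totals the last was -0.24. The median difference of all tested genes was between 0.04 and 0.12 in these contrasts, and with each mouse centred on its median the 4 Asns differences ran from -0.45 to -0.50 and the 4 Atf4 differences from -0.30 to -0.43. Aspa, the single measured oligodendrocyte marker of 8 listed, lay between 7.52 and 8.98 in wild type and between 8.15 and 10.62 in mice with the AD alleles, and its r with the Asns deviations was -0.726. Flt1, the 1 measured endothelial marker of 10 listed, lay between 6.13 and 6.64 in wild type and between 6.34 and 7.85 in mice with the AD alleles (r with Asns -0.342). The summed level of Cd68, Itgam and Ptprc, the 3 measured microglial markers of 10, lay between 8.51 and 8.97 in wild type and between 8.06 and 10.37 in the others (r with Asns -0.532). Limma called 0 of these 5 marker genes, and their part in the Asns and Atf4 differences was not tested.

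**Figure D1:**
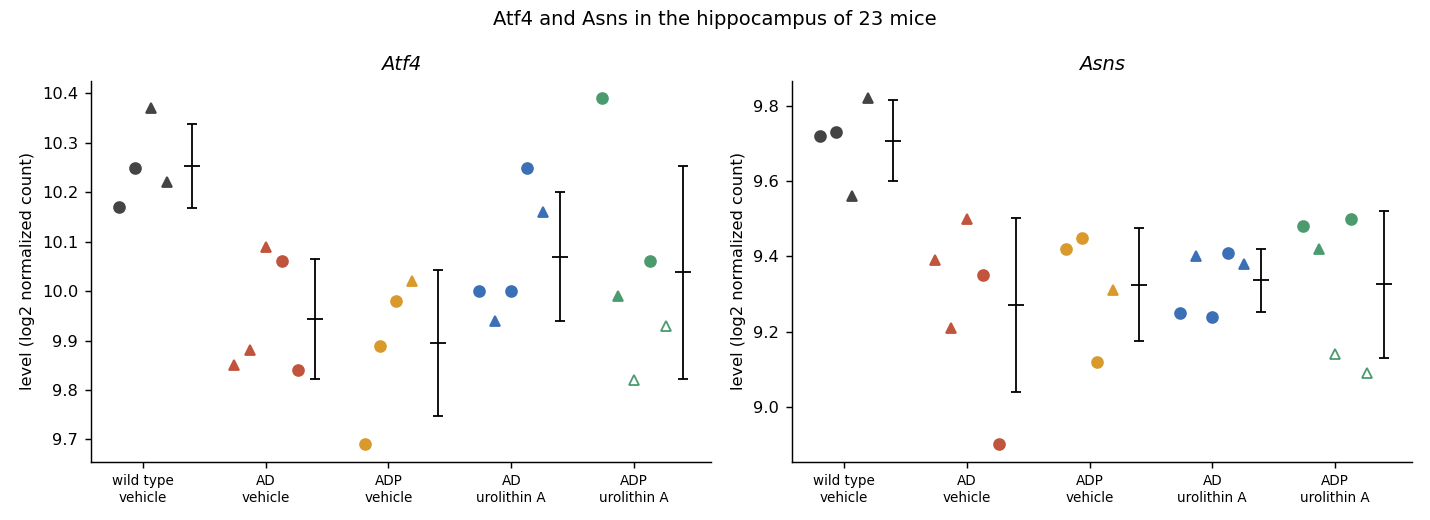
Levels of Atf4 and Asns (log2 normalized count) in each mouse by group, circles for males and triangles for females, with open symbols for both ADP mice of low inferred totals and black bars for the group mean ± SD. Asns was below 9.56 in all 19 mice with the AD alleles and at 9.56 or above in all 4 wild-type mice, whereas 2 treated mice reached the wild-type range of Atf4.

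No difference of the other enzymes from wild type passed the test. Pycr1 encodes the mitochondrial reductase that completes proline synthesis. Its level averaged 4.52 ± 0.31 in wild type (SD, n = 4), 4.38 ± 0.40 in AD vehicle (n = 5) and 4.43 ± 0.41 in ADP vehicle mice (n = 4), and 4.66 ± 0.23 and 4.91 ± 0.61 in AD and ADP mice on urolithin A (n = 5 each). All groups overlapped. The highest values, 5.49 and 5.55, came from both ADP urolithin A mice of low totals, and the difference of that group from wild type was 0.40 (SE 0.283, limma adjusted p = 0.390) with them and -0.0075 without them.

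Pck2 encodes the mitochondrial phosphoenolpyruvate carboxykinase, which links the citric acid cycle to phosphoenolpyruvate. Its level was 8.13, 8.23, 8.41 and 7.88 in wild type, and 8.35, 8.30, 8.11, 8.28 and 7.16 in AD vehicle mice, where replicate 5 stood alone. In ADP vehicle mice it was 8.03, 8.08, 7.90 and 8.29, within the wild-type range. The difference from wild type was -0.12 (SE 0.199, limma adjusted p = 0.872) in AD vehicle mice, and 0.0975 without replicate 5. It was -0.09 (SE 0.210, limma adjusted p = 0.901) in ADP vehicle mice, and 0.03 and 0.02 in AD and ADP mice on urolithin A (adjusted p = 0.938 and 0.968). The r of the Pck2 deviations with the summed neuronal markers was -0.705, and -0.744 without AD vehicle replicate 5. The part of these markers in the Pck2 level was not tested.

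Nor did any difference of the transporters from wild type. Slc3a2 encodes the heavy chain CD98 that carries the light chain LAT1, encoded by Slc7a5, to the membrane, where the pair exchanges leucine and other large neutral amino acids. Slc3a2 averaged 9.56 ± 0.13 in wild type (SD, n = 4) against 9.48 ± 0.08 in AD vehicle (n = 5) and 9.55 ± 0.18 in ADP vehicle mice (n = 4). Slc7a5 averaged 8.91 ± 0.13, 8.93 ± 0.14 and 8.96 ± 0.32 in the same 3 groups. The differences of Slc3a2 and Slc7a5 from wild type lay between -0.07 and 0.13 in the 4 transgenic groups, with limma adjusted p-values between 0.436 and 1; without both mice of low totals both genes were 0.16 above wild type in ADP urolithin A mice. In AD vehicle mice the 95% interval of the difference ran from -0.28 to 0.14 for Slc3a2 and from -0.23 to 0.27 for Slc7a5.

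Slc1a5 encodes the sodium-dependent neutral amino acid exchanger ASCT2, known as a route for glutamine. Its level was 3.95, 3.91, 3.75 and 4.61 in wild type, and 4.87, 4.40, 5.42, 4.68 and 5.37 in ADP mice on urolithin A. Of these 5 treated mice 4 lay above every wild-type mouse, and the 2 highest were those of low totals. The difference was 0.89 (SE 0.437, limma adjusted p = 0.228), and 0.595 without both. In AD vehicle mice the level was 3.95, 3.57, 3.15, 4.30 and 6.05, and the difference from wild type turned from 0.15 (adjusted p = 0.952) to -0.31 without replicate 5. Of the 5 genes that were tested against wild type, limma called 0 in AD vehicle, ADP vehicle, AD urolithin A and ADP urolithin A mice. The background was 0.162% of 619 genes in AD vehicle mice and 0% in the other 3 contrasts, in which 57, 81, 57 and 136 genes, in the order of the groups just named, had an unadjusted p under 0.05.

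**Figure D2:**
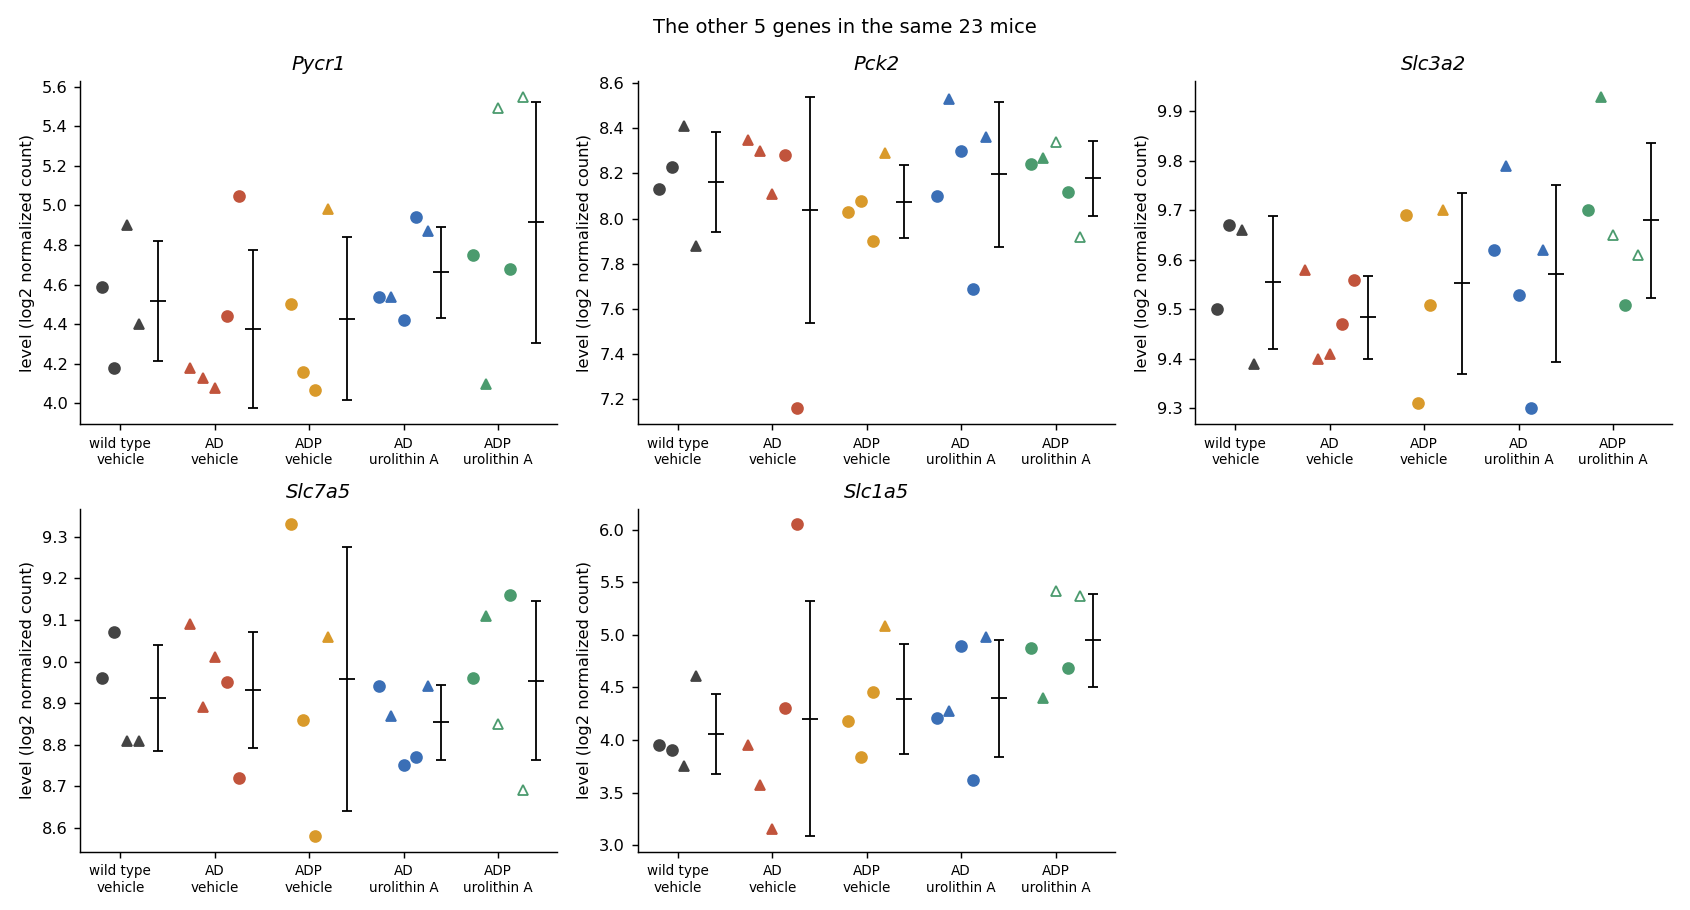
Levels of Pycr1, Pck2, Slc3a2, Slc7a5 and Slc1a5 (log2 normalized count) in each mouse by group, drawn as for Atf4 and Asns, with a separate scale per gene. The groups overlap for all 5 genes. AD vehicle replicate 5 is the low point of Pck2 at 7.16 and the high point of Slc1a5 at 6.05.

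Whether urolithin A moves these genes was asked within each genotype and over both. The main fit had no sex term, and sex was not balanced between the groups compared. Limma called 0 of the 7 in AD mice, 0 in ADP mice and 0 for the mean effect, against a background of 0% of 619 genes in each. In these 3 comparisons 21, 40 and 34 genes had an unadjusted p under 0.05. Atf4 was higher with treatment by 0.13 (SE 0.0927, adjusted p = 0.932) in AD and by 0.14 (SE 0.0983, adjusted p = 0.779) in ADP mice, where it was 0.25 without both mice of low totals. The mean Atf4 effect was 0.13 (95% interval from -0.0060 to 0.28, adjusted p = 0.740), and with each mouse centred on its median it was 0.06.

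The mean Asns effect was 0.03 (95% interval from -0.12 to 0.19, adjusted p = 0.901), 0.10 without both mice of low totals and -0.0128 without AD vehicle replicate 5. The mean effects of Pycr1 and Slc1a5 were 0.39 (SE 0.194, adjusted p = 0.740) and 0.38 (SE 0.301, adjusted p = 0.772), and they were 0.18 and 0.23 without both mice of low totals. Without AD vehicle replicate 5 they were 0.47 and 0.61. The mean effects of Pck2, Slc3a2 and Slc7a5 were 0.13, 0.11 and -0.04, with adjusted p-values of 0.874, 0.743 and 0.890. That of Pck2 was 0.0195 without AD vehicle replicate 5, with -0.06 in AD mice, and that of Slc7a5 was 0.0206 without both mice of low totals. The difference of the effect between genotypes had an adjusted p of 0.990 for each of the 7 genes, with 0% of 619 genes called.

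**Figure D3:**
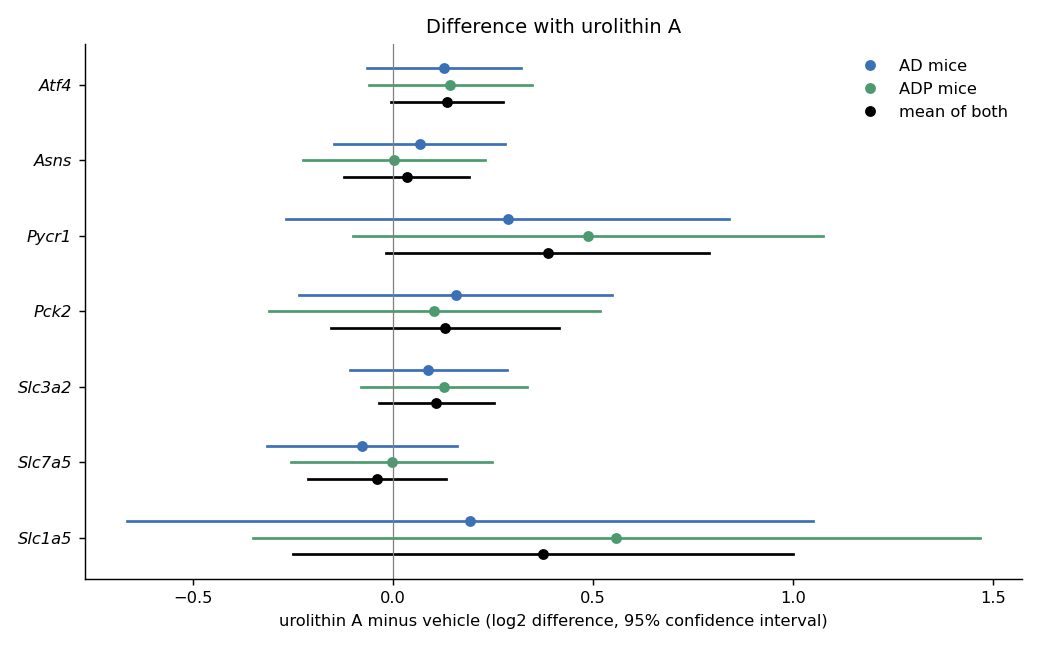
Urolithin A minus vehicle (log2 difference, points) with 95% confidence intervals (lines) for each gene in AD mice (blue), in ADP mice (green) and as the mean of both (black). Every interval includes 0, and those of Pycr1 and Slc1a5 are the widest of the 7.

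The Polb allele was read from ADP against AD mice under the same treatment. Females were 1 of 4 ADP vehicle mice against 3 of 5 AD vehicle mice, so allele and sex were partly mixed there. With vehicle the differences of the 7 genes lay between -0.05 (Atf4) and 0.19 (Slc1a5), with limma adjusted p-values between 0.979 and 0.997. Without AD vehicle replicate 5 they lay between -0.185 (Pck2) and 0.65 (Slc1a5). With urolithin A they lay between -0.03 (Atf4) and 0.55 (Slc1a5, SE 0.412, adjusted p = 0.750), and without both mice of low totals between -0.15 (Pycr1) and 0.25 (Slc1a5). Limma called 0% of 619 genes in both, with 26 and 52 at an unadjusted p under 0.05. Between 11 females and 12 males, Pck2 had the largest difference from 0 relative to its error, 0.25 higher in females (SE 0.120, adjusted p = 0.648), and 0.13 without AD vehicle replicate 5. Again 0% of 619 genes were called, with 48 at an unadjusted p under 0.05.

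The design also allowed a test of whether the 6 genes follow Atf4 from mouse to mouse. For this the group mean was removed from each value, which leaves 23 deviations per gene and takes out the differences between groups described above. For Asns Pearson's r with Atf4 was 0.345 (permutation p = 0.179, 0.836 adjusted over the 6 genes) and Spearman's rho was 0.355 (permutation p = 0.144, adjusted 0.609). Its slope was 0.39 log2 per log2 of Atf4 (SE 0.251, limma adjusted p = 0.999), with a 95% interval from -0.14 to 0.91, and 0.14 without both mice of low totals. Without the 2 mice farthest from the median of Atf4, ADP urolithin A replicate 1 and AD urolithin A replicate 4, r was 0.227, and without both mice of low totals it was 0.129.

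The relation of Asns to Atf4 was not the same in all subsets. It was 0.0580 over 13 vehicle mice (permutation p = 0.868) and 0.660 over 10 treated mice (permutation p = 0.0665, adjusted 0.399); the difference between these was not tested. Over 11 females and 12 males it was 0.241 and 0.211. With each mouse centred on its median over the tested genes, r was 0.618 (permutation p = 0.00714, 0.0428 adjusted over the 6 genes). In that setting the slope of Asns on Atf4 was 0.945, with a limma adjusted p of 0.189 over 618 genes. With the inferred scaling constant of each mouse as a covariate r was 0.313. No group holds 6 mice, so no value within a group is given, and the labels name no batch.

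No relation of the other 5 genes to Atf4 passed the test on the deposited scale. Pearson's r was 0.0409 for Pck2, -0.0868 for Slc7a5, -0.0994 for Pycr1, -0.204 for Slc3a2 and -0.235 for Slc1a5, with permutation p-values between 0.290 and 0.855. Spearman's rho lay between -0.215 (Slc3a2) and 0.0801 (Slc7a5), with permutation p-values between 0.374 and 0.976. Without the 2 mice farthest on Atf4 r lay between -0.176 (Slc1a5) and 0.225 (Pck2). After median centring Slc1a5 ran against Atf4 (r = -0.562, permutation p = 0.0157, 0.0471 adjusted over the 6 genes). In that setting its slope on Atf4 was -2.36, with a limma adjusted p of 0.304 over 618 genes. By the limma slope on the deposited scale 0 of the 6 genes and 0% of 618 genes were called, with 15 at an unadjusted p under 0.05.

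**Figure D4:**
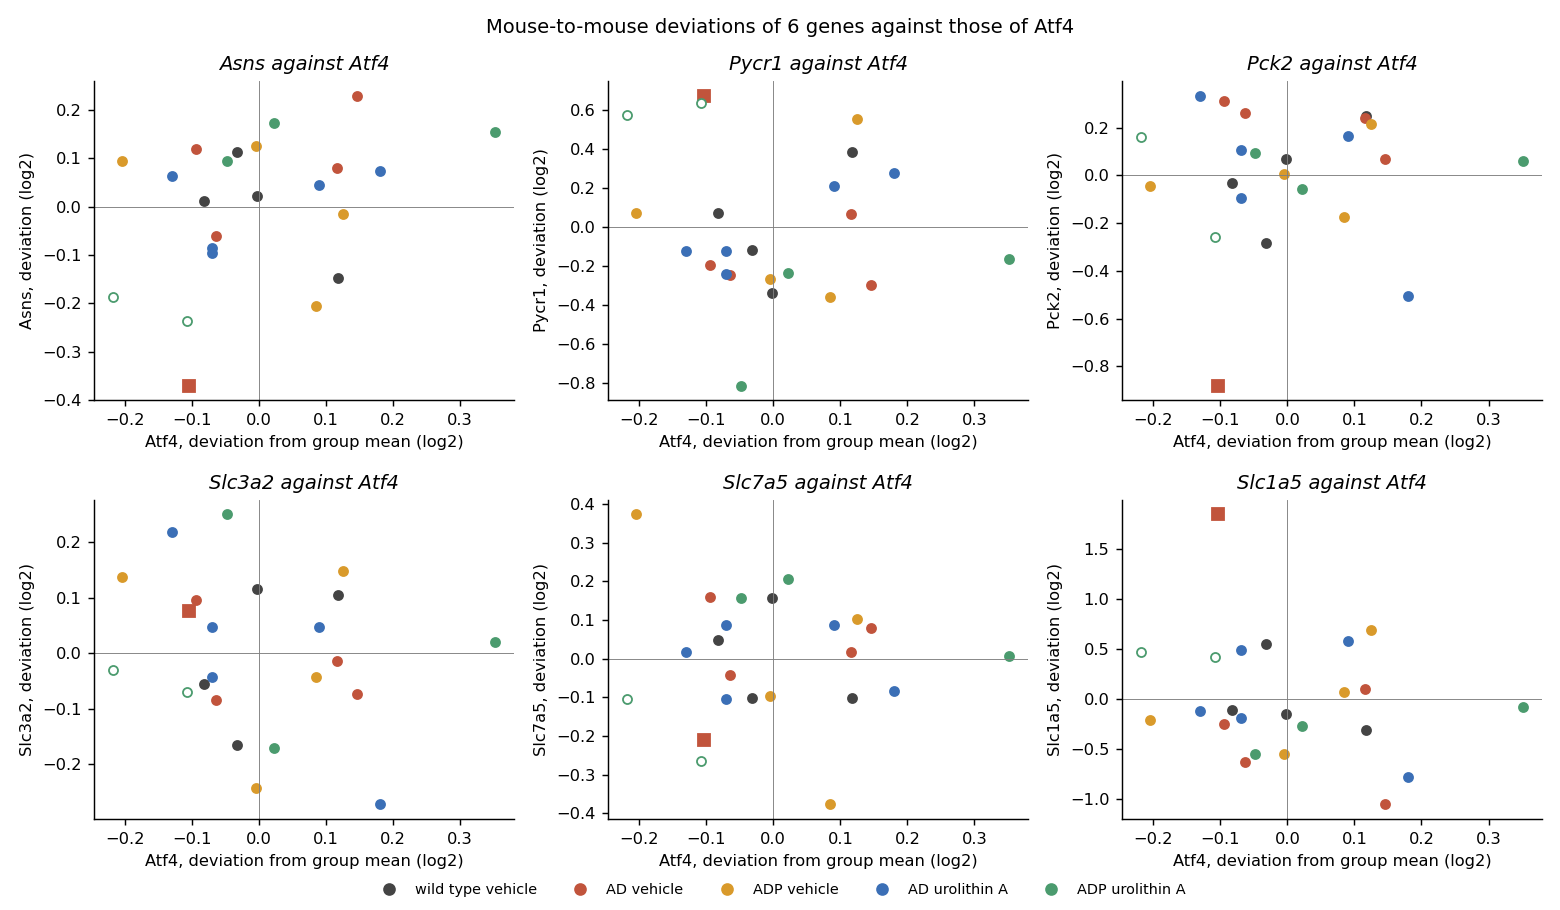
Deviation from the group mean (log2) of each of 6 genes against that of Atf4 in 23 mice, coloured by group, with open circles for both ADP mice of low totals and a square for AD vehicle replicate 5. Asns leans upward with Atf4 (r = 0.345), and its lowest point is the square, followed by 1 of the open circles, while the other 5 panels show no closer relation (r from -0.235 to 0.0409).

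Among all 618 tested genes the r with Atf4 had a median of 0.0263, with the 5th to 95th percentile from -0.282 to 0.365. In this order Asns was 41st, Pck2 283rd, Slc7a5 463rd, Pycr1 480th, Slc3a2 548th and Slc1a5 572nd, and after median centring Asns was 5th. The genes most like Atf4 were Rpia (r = 0.657), of the pentose phosphate pathway, Hspa4 (0.607), a heat shock protein, Srebf2 (0.556), the regulator of sterol synthesis, and Selenok (0.516), a selenoprotein of the endoplasmic reticulum. Prkab1 (0.513), Pgk1 (0.495), Slc16a7 (0.494) and Mycn (0.485) came next. At the other end stood Myc (-0.604), Brca2 (-0.545), Fancd2 (-0.535) and Mybl2 (-0.487). These values are over 23 mice and were picked as extremes, so they carry no test. Of the tested panel genes that are no members, 14 have the TGATGNAA element in their promoter, and their median r with Atf4 was -0.03, against 0.03 for 477 without it.

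Among the 7 genes themselves the closest pair over all 23 mice was Asns with the transporter Slc7a5. Over 21 pairs r was 0.655 for this one (permutation p = 0.00248, adjusted 0.0521; rho 0.592, adjusted 0.207), and 0.534 without the 2 mice farthest on Asns. Asns ran against Slc1a5 (r = -0.636, adjusted 0.0878; rho -0.473, adjusted 0.207) and Pycr1 (r = -0.564, adjusted 0.113), and Pycr1 went with Slc1a5 (r = 0.590, adjusted 0.0586). Among all 618 tested genes the r with Asns had a median of -0.239, with the 5th to 95th percentile from -0.652 to 0.543. In this order Slc7a5 was 13th, Pycr1 533rd and Slc1a5 572nd. Slc3a2 and Slc7a5, which form 1 transporter, had an r of 0.379 (adjusted 0.329). None of the 21 pairs passed an adjusted p of 0.05. Without AD vehicle replicate 5 the r of Asns with Slc7a5 was 0.618, with Slc1a5 -0.380 and with Pycr1 -0.429. The closest pair without that mouse was Pck2 with Slc3a2 (r = 0.690). Over all 23 mice the r of Pck2 with Slc3a2 was 0.358 (adjusted 0.242).

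A slope on Asns over all genes, a comparison added after the data were seen, called 108 of 618 genes (17.5%), 22 with a positive and 86 with a negative slope. Slc7a5 had a slope of 0.72 (SE 0.203, limma adjusted p = 0.0249) and Slc1a5 had -2.59 (SE 0.744, adjusted p = 0.0261), and both calls stand on that background. Without AD vehicle replicate 5 the count was 0 (98 genes at an unadjusted p under 0.05), the slope of Slc7a5 was 0.80 (adjusted p = 0.195) and that of Slc1a5 was -1.33 (adjusted p = 0.376). Without ADP urolithin A replicate 5 it was 27, and with the scaling constant as a covariate it was 0 (156 at an unadjusted p under 0.05). The deviations of Asns correlated with the scaling constant at r = -0.547, those of Slc7a5 at -0.523, of Slc1a5 at 0.507 and of Pycr1 at 0.737. All tested genes had a median of 0.132, with the 5th to 95th percentile from -0.456 to 0.632. Without both mice of low totals the 4 values were -0.182, -0.298, 0.549 and 0.513, in the same order. For Atf4 the r was -0.158 with these mice and 0.495 without them. Without AD vehicle replicate 5 the r of Asns with Aspa was -0.566, with Flt1 -0.0298 and with the microglial sum -0.291. Genes most like Asns were Nr2f1 (r = 0.750), Glrx (0.731), Mapk8 (0.725) and Serinc1 (0.704), again picked as extremes.

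**Figure D5:**
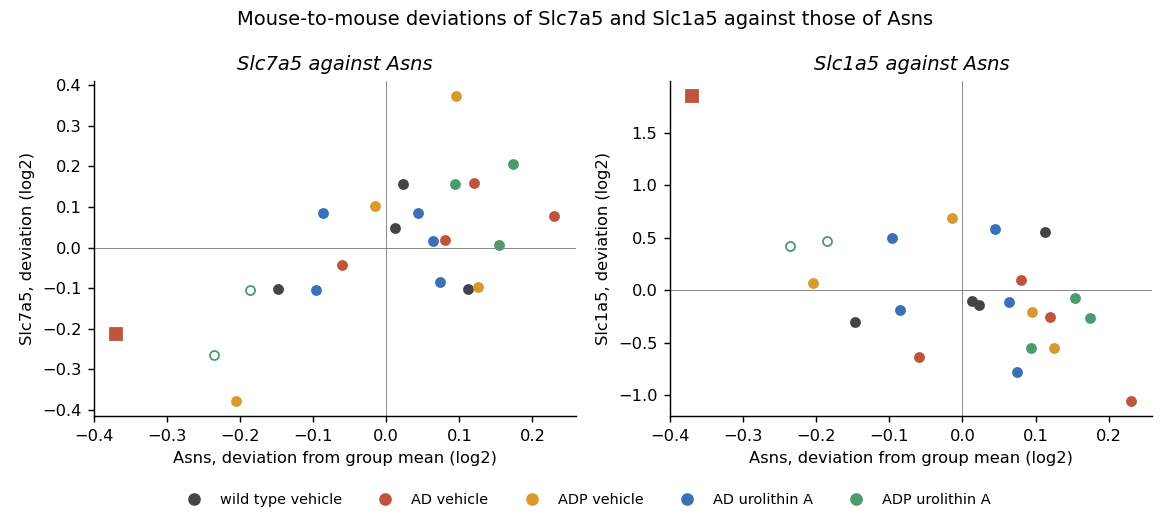
Deviation from the group mean (log2) of Slc7a5 and Slc1a5 against that of Asns in 23 mice, with symbols as in the plot against Atf4. Slc7a5 is higher where Asns is higher (r = 0.655, and 0.618 without the square), whereas the negative relation of Slc1a5 (r = -0.636) is -0.380 without the square, AD vehicle replicate 5.

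Other genes of the same response gave no calls. Of 48 further ATF4 and amino acid response genes listed, 9 were measured and tested, and limma called 0 of 9 in every comparison and on the Atf4 slope. In AD vehicle against wild-type mice 6 lay above and 3 below 0, with a median of 0.07 against 0.04 over all genes. Sqstm1, the autophagy receptor p62, differed by -0.18 (adjusted p = 0.362), Shmt2, the mitochondrial serine hydroxymethyltransferase, by 0.31 (adjusted p = 0.512) and Psat1, of serine synthesis, by 0.39 (adjusted p = 0.553). In ADP vehicle mice 6 lay above and 3 below 0 with a median of 0.16, and Psat1 (0.53) and Psph (0.31), the last steps of serine synthesis, each had an adjusted p of 0.352. Psat1 and Psph lay above 0 in both contrasts, in which Atf4 and Asns lay below 0.

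With urolithin A the same list had 5 of 9 members above 0 in AD mice and 3 of 9 in ADP mice. Map1lc3b (0.10) and Sqstm1 (0.07) had the smallest p-values in AD mice, both with an adjusted p of 0.932. In ADP mice Vegfa (-0.30, adjusted p = 0.754), Shmt2 (0.22) and Map1lc3b (-0.11, both adjusted p = 0.779) had the smallest. On the Atf4 slope Map1lc3b, an autophagosome protein, had 0.33 and Vegfa 0.35. Slc7a11, a cystine transporter, had -0.52, and each of these slopes had a limma adjusted p of 0.999.

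Of 28 other amino acid transporters listed, 3 were measured and 2 tested, Slc3a1 and Slc6a12, and 0 were called. Slc3a1 is the heavy chain of a cystine transporter other than that of Slc7a11. It differed from wild type by 0.64 (adjusted p = 0.549) in AD and by 0.74 (adjusted p = 0.366) in ADP vehicle mice. Slc6a12, a betaine and GABA transporter, differed with urolithin A by 0.79 (adjusted p = 0.932) in AD and 0.62 (adjusted p = 0.779) in ADP mice. Of the amino acid sensing genes around mTORC1, 11 of 25 were tested, and of enzymes of proline, serine, asparagine and phosphoenolpyruvate metabolism 12 of 17, with 0 called in each comparison.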

How the data were processed

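Hippocampal RNA of 23 mice was hybridised to an nCounter metabolic panel. The deposited table holds 1 log2 value per gene and mouse, normalized by the authors; the nCounter Advanced Analysis suite was used, per the series' design text, and the reference genes are not given in the sources used here. Of 768 rows, 20 hold no values. In each mouse at least 99.5% of low values lay at log2 of a whole number plus 1 constant (tolerance 0.0125), from which totals were inferred. Mice were grouped by title and genotype. Nothing in the labels gives litters or batches. The p-values therefore treat the mice as independent, and a group difference cannot be told apart from a litter or batch difference.

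Differences were tested with limma 3.58.1 in R 4.3.3 (1 mean per group, trend, two-sided, Benjamini-Hochberg over 619 genes, threshold 0.05), and slopes on Atf4 likewise over 618 genes. Correlations used 100000 permutations within groups (two-sided, SciPy 1.17.1, NumPy 2.4.6). Figures used matplotlib 3.10.9. Intervals are 95%. The workflow was tested on simulated data. The members, the gene lists and the promoter element were chosen with earlier results of these data known. Genes named are the 7 members, the 8 highest and 4 lowest in r with Atf4, the 5 highest with Asns, and the 3 list members with the smallest p per comparison, except items that are not reported here; Pdk1, Aspa, Flt1, Cd68, Itgam and Ptprc were named after their values were seen. Alternatives were median centring, quantile normalization, filters, eBayes without trend, array weights, sex or the replicate number in the fit, only the groups compared, and leaving out mice; the scaling constant and Ttr as covariates in group contrasts, the slope on Asns and its alternatives, the correlations with marker levels, and the correlations among pairs without AD vehicle replicate 5 were added after the data were seen.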

Additional observations from a re-analysis of the deposited data

Results flagged for a closer look

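Pck2 in AD vehicle replicate 5 lay far below the other 4 mice of its group, at 7.16 against 8.11 to 8.35. It was the 1 such value among 35 combinations of gene and group, where chance gives about 1 in 20.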

How the results depend on the processing

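Across 2861 recomputed differences of the 7 genes the sign changed in 204, mostly near 0. It changed in 2 where the difference exceeded its SE, both of Pycr1 in ADP urolithin A against wild-type mice, -0.0496 after quantile normalization and -0.0075 without both mice of low totals. Array weights called 182 genes in ADP urolithin A, 132 in ADP vehicle, 92 in AD urolithin A and 10 in AD vehicle against wild-type mice, 2 in ADP against AD vehicle mice, 1 for urolithin A in AD mice and 32 between sexes; Slc1a5 in ADP urolithin A mice was then 1.02 above wild type (adjusted p = 0.0146). The AD vehicle count was 0 after median centring, quantile normalization or with only the groups compared.

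Same-numbered mice had correlations from -0.392 to 0.548 (median 0.170), over 0.1 in 27 of 43 pairs, against a median of -0.0760 and 56 of 168 pairs for different numbers. The labels tie the numbers to nothing shared, so the mice were not treated as paired. These correlations cannot decide whether same-numbered mice share a source, since a shared source need not lift every pair. With the replicate block ADP vehicle against wild type gave 1 gene and no member was called in a tested comparison. The r of Asns with Atf4 was then 0.374 (permutation p = 0.0568, 0.316 adjusted over the 6 genes).

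For the correlation with Atf4, median centring gave 0.618 for Asns, -0.562 for Slc1a5 and 0.197 for Slc7a5. Slc7a5 was also positive by rho (0.0801), after quantile normalization (0.0920), in treated mice (0.197) and in females (0.256). Pycr1 was 0.0259 with the scaling constant as a covariate and 0.283 without both mice of low totals, Pck2 was -0.307 in treated mice and -0.156 in females, and Slc3a2 was 0.0724 in females. Leaving out 1 mouse gave 0.255 to 0.441 for Asns, -0.146 to 0.207 for Pck2, -0.200 to 0.0481 for Pycr1, -0.319 to -0.146 for Slc1a5, -0.289 to -0.0624 for Slc3a2 and -0.175 to 0.156 for Slc7a5.

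Leaving out 1 mouse gave 0 to 13 genes for ADP urolithin A against wild type (13 without wild-type replicate 3, 10 without ADP urolithin A replicate 2, 2 without AD vehicle replicate 5), 0 to 6 for ADP vehicle (6 without AD vehicle replicate 5), 0 to 2 for AD vehicle (0 without wild-type replicate 1 or 4, 2 without ADP vehicle replicate 1), 0 to 1 for ADP against AD urolithin A (1 without AD urolithin A replicate 2) and 0 to 28 between sexes (28 without AD vehicle replicate 5). For the slope on Asns it gave 0 to 133, with 55 without wild-type replicate 3, 70 without AD vehicle replicate 1 and 27 without ADP urolithin A replicate 5; the count was 216 after median centring, 188 after quantile normalization, 60 with the choroid plexus gene Ttr and 0 with the scaling constant as a covariate. The cause of these changes was not tested. Centring on reference genes was not run, since no reference gene could be told among the genes with values. Low counts limit Pycr1 and Slc1a5.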
